A study of Homo sapiens with 6 samples.

Results

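The genes described here are 36 zinc finger genes of the cluster at 19q13.4, from ZNF577 to ZNF813, which lie within 1.69 Mb of chromosome 19. They were taken by name from a table of 48183 gene names, and all 36 were found, each under a single Ensembl identifier. The cluster was selected on measured values, namely the higher counts of many of its genes in naive than in primed libraries, so the naive-primed values below describe the genes and carry no test. Left out of the list were ZNF175, ZNF888, ZNF331 and the pseudogenes ZNF137P, ZNF702P, ZNF818P and ZNF321P. Of the 6 of these that could be tested, 3 were called higher (ZNF137P, ZNF702P and ZNF888) and 1 lower (ZNF175) in naive cells.

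Bulk RNA-seq was carried out on 6 libraries of human embryonic stem cells, 4 naive and 2 primed. All carried the EOS reporter, in which green fluorescent protein is driven by an early transposon promoter and Oct4 enhancer and which the cells held as a piggyBac insertion. Of the naive libraries, 1 was induced with VPA, an inhibitor of histone deacetylases (day 9 and 12 passages). Another 1 was induced with a doxycycline-inducible, constitutively active p38 kinase called CA-p38 (day 7 and 12 passages). The other 2 were induced with AICAR, an activator of AMP-activated protein kinase (day 14 and 14 or 15 passages). The days are those the study gives for each kind of cell and not lengths of exposure. It describes a shorter doxycycline treatment and a further week of AICAR at a lower dose. The primed libraries came from the EOS line, parent of the VPA and AICAR cells, and from the CA-p38 EOS line, parent of the CA-p38 cells. The labels name the line H1 and the text of the study names it H9. Each parental line is thus a single culture, and nothing says that the 2 AICAR libraries are separate inductions, so the spread between libraries may in part be technical. VPA was given in Ndiff227 with PD0325901 and LIF, and AICAR and doxycycline in PXGL medium. Per the labels naive cells were kept in PXGL on mouse embryonic fibroblasts, while the study also describes feeder-free culture of naive cells, and which of these a given library came from is not stated. Naive cells were sorted for CD75 and SUSD2, whereas primed cells were grown in StemFit AK02N without feeders, and no sort is stated for them. Medium, sorting and any feeders therefore cannot be told apart from the state of the cells.

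Zinc finger proteins of the KRAB class are the largest family of human transcription factors. A row of C2H2 fingers reads the DNA, and the KRAB domain brings in TRIM28 (KAP1), which in turn recruits the histone methyltransferase SETDB1 and heterochromatin proteins, so that many family members silence transposable elements. The genes arose by repeated tandem duplication and stand in clusters, many of them on chromosome 19. Naive human cells have low DNA methylation and transcribe transposable elements that primed cells keep silent.

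The libraries held 46823699 to 54277064 counts. At these depths a count of 0 allows a level of up to 0.0552 to 0.0613 CPM, where CPM is the count per 1000000 counts of the TMM-scaled library. All 5 primed markers listed were lower and all 6 naive markers higher in the naive libraries. Of the 3 pluripotency markers, POU5F1 was not called, NANOG was called higher (log2 fold change 1.33) and SOX2 lower (-0.87). Naive and primed libraries differed widely, with 14058 of 26497 genes past the threshold (edgeR's quasi-likelihood test, adjusted p under 0.05), and the median of all genes was 0.11 on the log2 scale. Some transcripts used as markers of other cell types also moved with the state. Of the 6 fibroblast markers 3 were lower in naive cells (COL1A1, COL1A2 and POSTN). The other 3 had log2 fold changes above 0 and were not called: COL3A1 (1.22), DCN (0.87) and LUM (2.15). The 6 summed to 30.8 to 72.8 CPM in naive and 175 to 192 CPM in primed libraries, mostly from COL1A1 and COL1A2. The 5 markers of 8-cell-like cells were all higher, with sums of 318 to 434 CPM against 0.143 to 0.323 CPM. Nearly all of the naive sum was KHDC1L, at 376 ± 53.5 CPM (SD, n = 4). LEUTX, ZSCAN4, TPRX1 and DUXA had naive means of only 0.334 to 3.18 CPM, so the sum does not measure the share of such cells. LEUTX and TPRX1 were at 0 in both primed libraries and passed the filter on low counts only through the naive ones, so nothing is read from their calls. Of the 4 trophoblast markers tested 2 were higher, with sums over the list of 9.62 to 11.9 CPM against 4.04 to 4.99 CPM. The endoderm markers summed to 1.79 to 4.19 CPM in naive and 7.37 to 29.6 CPM in primed libraries, and the neural markers to 1.18 to 2.97 CPM and 1.33 to 1.84 CPM. The part of such cells in the values below was not tested, nor whether these transcripts came from them or from the stem cells themselves. In bulk RNA fewer cells of a type and less RNA per cell cannot be told apart.

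In sum, the 36 genes took more of the naive than of the primed RNA. Their summed level was 1542 CPM in VPA, 1681 CPM in CA-p38, 1517 CPM in AICAR 1 and 1517 CPM in AICAR 2, against 660.2 and 705 CPM in primed EOS and primed CA-p38. The means were 1564 ± 78.8 CPM (SD, n = 4) and 683 ± 31.6 CPM (SD, n = 2), and the groups did not overlap. ZNF600 alone made up 12.4% to 14.3% of the sum in naive libraries and 0.621% to 0.638% in primed ones. Without ZNF600 the sums were 1306 to 1453 CPM and 656 to 700 CPM, and still did not overlap.

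All 36 genes passed the filter on low counts. Of these, 26 were called higher in naive cells, where 26% of all genes tested were, and 2 were called lower, where 27% of all genes were. The remaining 8 were not called. Every naive library stood above both primed libraries for 28 of the genes (32.9% of all genes tested) and below them for 2 (32.1% of all genes). Called and at least 4-fold higher were 11 of the genes (9.53% of all genes), and 6 were at least 16-fold higher (3.59% of all genes). The median log2 fold change over the 36 genes was 0.95. Because the contrast led to the choice of the genes, nothing is read from these shares.

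**Figure D1:**
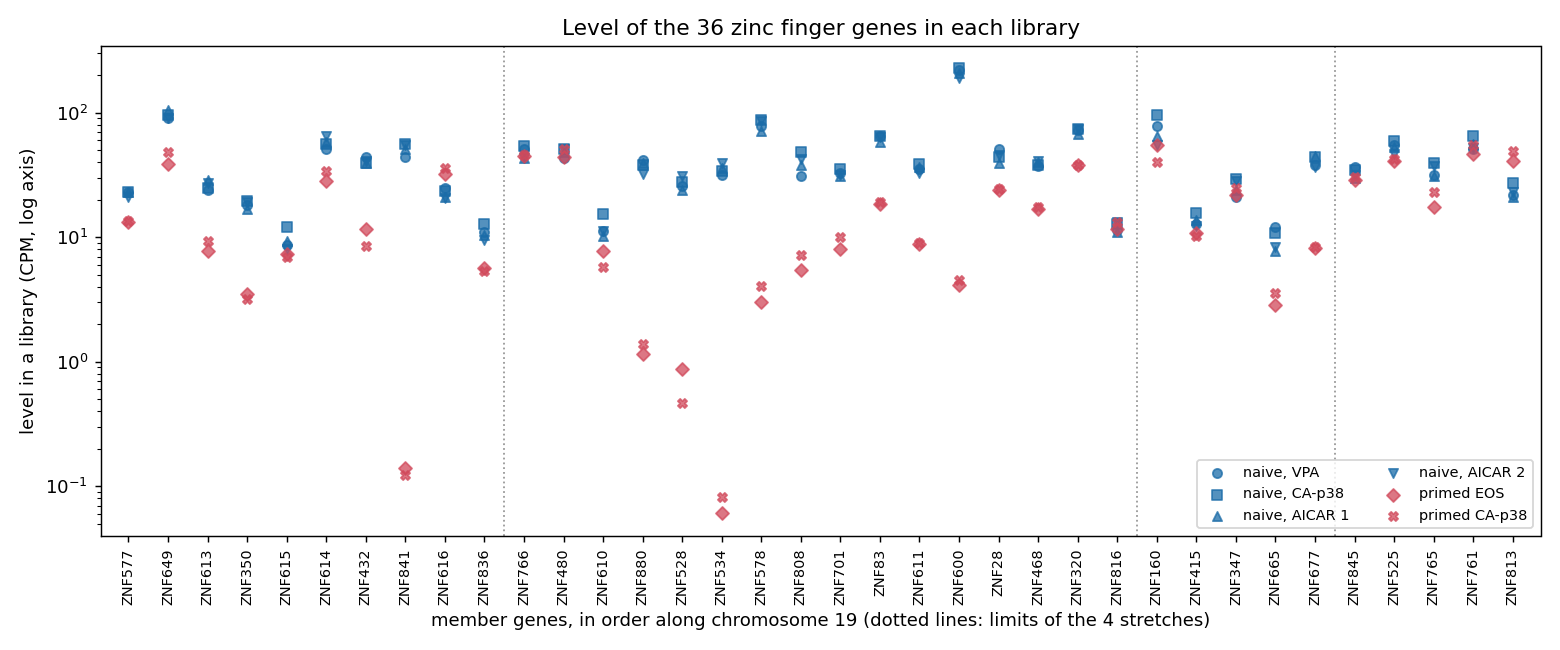
Level of each of the 36 genes in each library, in CPM on a log axis, with the genes in their order along chromosome 19; blue symbols are the 4 naive libraries and red symbols the 2 primed ones. ZNF841 and ZNF534 lie at 0.0606 to 0.141 CPM in the primed libraries and at 31.8 CPM or more in every naive one, while the symbols of ZNF480, ZNF766 and ZNF816 overlap.

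Levels per kb of transcript, the scale on which genes can be compared, ranged from 2.35 (ZNF665) to 45.9 CPM per kb (ZNF600) in the naive mean, with a median of 8.12. In the primed mean they ranged from 0.0137 (ZNF534) to 13.6 CPM per kb (ZNF649), with a median of 2.82. The cluster was therefore not silent in primed cells, where ZNF649 and ZNF761 (12.8 CPM per kb) had the highest levels. In naive cells ZNF649 came next to ZNF600, at 30.2 CPM per kb, followed by ZNF880 at 16.8 and ZNF160 at 16.6 CPM per kb, which differed by less than the spread between libraries of either gene.

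ZNF534 and ZNF841 were nearly absent from primed cells. ZNF534, a gene whose product is known to bind HERV-H elements, had 31.8 CPM in VPA, 34.1 CPM in CA-p38, 36.1 CPM in AICAR 1 and 39.2 CPM in AICAR 2. The primed EOS library held 3 counts of it and primed CA-p38 held 4, which is 0.0606 and 0.0817 CPM. Over the summed counts the ratio of naive to primed was 496, with a 95% exact (Clopper-Pearson) interval of 240 to 1233, which covers counting error only. The fitted log2 fold change was 8.91 (SE 0.28), and for so few primed counts the fitted value depends on the prior count. ZNF841 had 44.2, 56.6, 50.7 and 54.9 CPM in VPA, CA-p38, AICAR 1 and AICAR 2. Its primed counts were 7 and 6, giving a ratio of 390 (228 to 733) and a log2 fold change of 8.58 (SE 0.25). The lowest naive library of either gene was thus far above its highest primed library.

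ZNF600 had the highest level of the cluster in naive cells. It reached 221 CPM in VPA, 228 CPM in CA-p38, 211 CPM in AICAR 1 and 189 CPM in AICAR 2, against 4.10 and 4.50 CPM in primed EOS and primed CA-p38. Its log2 fold change was 5.62 (SE 0.15), a 49.3-fold difference. ZNF528 had 25.9, 27.7, 24.04 and 30.8 CPM in the same order of naive libraries and 0.868 and 0.470 CPM in the primed ones. These gave a log2 fold change of 5.33 (SE 0.26), and the value ran from 4.97 without primed CA-p38 to 5.83 without primed EOS. ZNF880, the gene before ZNF528, had 41.6, 38.4, 39.2 and 32.2 CPM against 1.151 and 1.39 CPM, a log2 fold change of 4.89 (SE 0.20). The sixth gene past 16-fold was ZNF578, at 81.0 ± 7.48 CPM (SD, n = 4) against 3.55 ± 0.762 CPM (SD, n = 2) and a log2 fold change of 4.51 (SE 0.18). In all 4 genes the naive libraries differed among themselves by at most 1.29-fold.

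A further 11 genes were called higher with folds from 2 to 16, several of them with a known role. ZNF808, a repressor of MER11 elements whose loss in humans causes pancreatic agenesis, had 30.8 CPM in VPA, 48.4 CPM in CA-p38, 38.2 CPM in AICAR 1 and 42.5 CPM in AICAR 2, against 5.49 and 7.21 CPM in primed EOS and primed CA-p38. This was a log2 fold change of 2.65 (SE 0.21), and the naive libraries spanned 1.57-fold. ZNF350, also called ZBRK1, is a KRAB repressor that binds BRCA1. It had 18.1, 19.5, 17.0 and 19.3 CPM in VPA, CA-p38, AICAR 1 and AICAR 2 and 3.49 and 3.19 CPM in the primed libraries, a log2 fold change of 2.47 (SE 0.18). ZNF677, known for the methylation of its promoter in lung cancer, had 38.1, 43.8, 44.6 and 36.6 CPM against 8.26 and 8.42 CPM, a log2 fold change of 2.29 (SE 0.15).

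ZNF432 had 44.2, 39.8, 39.4 and 41.0 CPM in VPA, CA-p38, AICAR 1 and AICAR 2 and 11.6 and 8.44 CPM in primed EOS and primed CA-p38, a log2 fold change of 2.04 (SE 0.16). ZNF611, which binds SVA elements, had 35.4, 39.0, 36.5 and 32.9 CPM against 8.85 and 9.07 CPM, a log2 fold change of 2.004 (SE 0.15). ZNF83 had 65.2, 65.5, 58.5 and 63.7 CPM against 18.4 and 19.2 CPM, a log2 fold change of 1.75 (SE 0.12). In each of these genes the lowest naive value was over 3 times the highest primed value. ZNF649, a KRAB protein that binds LINE-1 elements, was abundant in both states, with 91.3, 96.4, 105.8 and 91.6 CPM in naive and 38.6 and 48.2 CPM in primed libraries. Its log2 fold change was 1.1502 (SE 0.13). The other 4 genes of this range were ZNF701 (1.85), ZNF613 (1.60), ZNF665 (1.60) and ZNF468 (1.19).

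The 9 genes called higher by less than 2-fold ran from ZNF525, with a log2 fold change of 0.36, to ZNF836 with 0.99. Between them lay ZNF160, ZNF577, ZNF765, ZNF610, ZNF28, ZNF614 and ZNF320. ZNF160 varied most among naive libraries, by 1.72-fold. It had 78.7 CPM in VPA, 95.3 CPM in CA-p38, 65.3 CPM in AICAR 1 and 55.3 CPM in AICAR 2, against 55.1 and 39.97 CPM in primed EOS and primed CA-p38. AICAR 2 thus stood next to its own parent, primed EOS. The log2 fold change was 0.63 (SE 0.20), and without primed CA-p38 it was 0.43 and ZNF160 was no longer called, and neither was ZNF610, at 0.64. The call of ZNF525 was lost in 8 of the 15 alternative fits, among them those without primed EOS or without primed CA-p38.

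Of the 8 genes that were not called, ZNF480 and ZNF816 had the log2 fold changes nearest to 0, at 0.03 (SE 0.12) and -0.04 (SE 0.17). ZNF480 had 43.5, 51.4, 48.2 and 51.1 CPM in VPA, CA-p38, AICAR 1 and AICAR 2 against 44.03 and 51.2 CPM in primed EOS and primed CA-p38. ZNF816 had 11.3, 12.9, 11.00 and 13.3 CPM in naive libraries against 11.6 and 13.2 CPM. In both genes the groups overlapped, and the sign of the difference turned under some fits. ZNF766, with 50.7, 54.6, 42.9 and 43.7 CPM against 45.0 and 45.6 CPM, had a log2 fold change of 0.08 (SE 0.13), and its sign turned without the CA-p38 naive library. ZNF415 had 12.7, 15.6, 13.7 and 12.3 CPM in naive and 10.8 and 10.2 CPM in primed libraries. Its groups did not overlap and its log2 fold change was 0.37 (SE 0.17), which passed the threshold only with scaling to library totals among the fits made. The other uncalled genes were ZNF615 (0.42), ZNF845 (0.16), ZNF761 (0.14) and ZNF347 (0.14).

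ZNF616 and ZNF813 went the other way. ZNF813, the last gene of the cluster, had 22.05 CPM in VPA, 27.4 CPM in CA-p38, 21.2 CPM in AICAR 1 and 23.0 CPM in AICAR 2, against 40.96 and 49.5 CPM in primed EOS and primed CA-p38. Its log2 fold change was -0.95 (SE 0.14). ZNF616 had 24.6, 23.6, 21.0 and 20.8 CPM in naive libraries against 32.01 and 35.99 CPM, a log2 fold change of -0.60 (SE 0.13). Every naive library of these genes lay below both primed ones, and both genes were called lower in all 15 alternative fits as well.

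**Figure D2:**
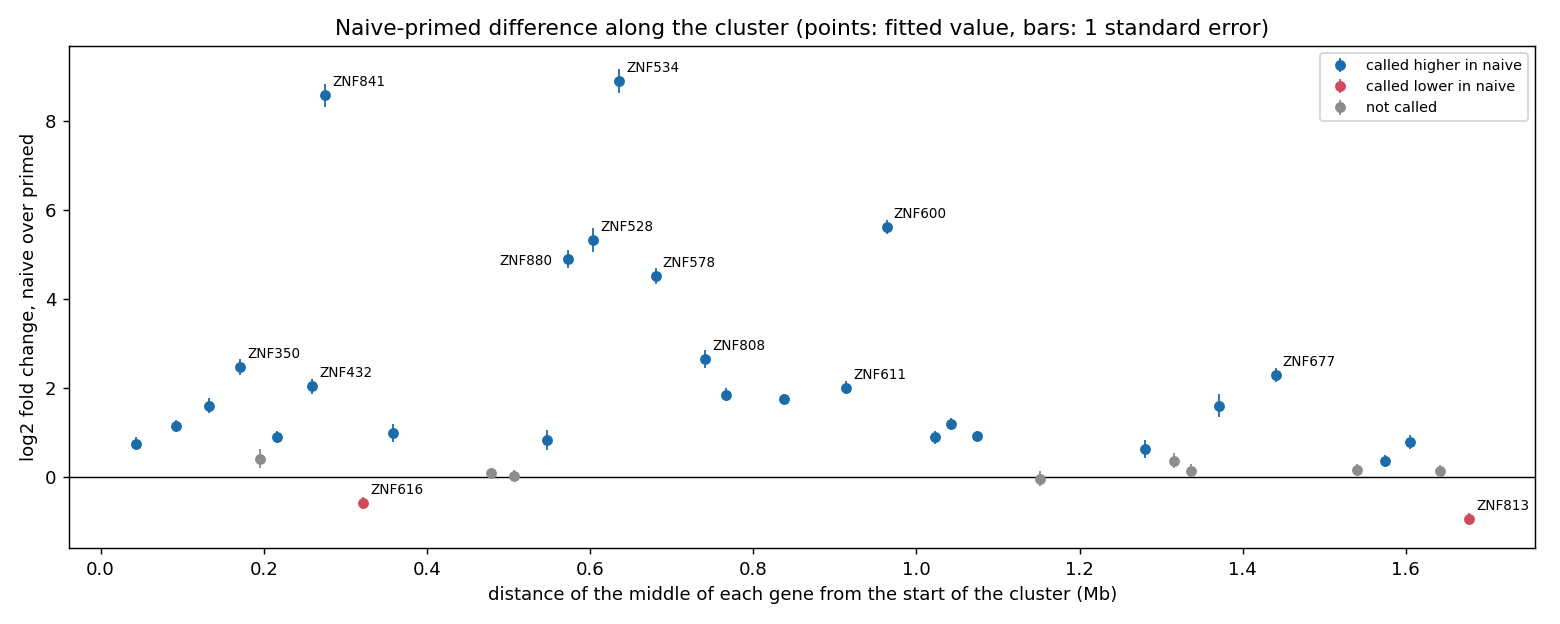
Fitted log2 fold change of naive over primed libraries for each of the 36 genes (points, bars 1 standard error) against the distance of the gene's middle from the start of the cluster in Mb; blue genes were called higher, red lower and grey not called. The 6 genes past 16-fold (4 on this scale) are ZNF841, ZNF880, ZNF528, ZNF534, ZNF578 and ZNF600, and the red points are ZNF616 and ZNF813.

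The size of the difference was not even along the chromosome. Genes without zinc fingers divide the cluster into 4 stretches, limits that were drawn after the values had been seen. In the first, from ZNF577 to ZNF836, 8 of 10 genes were called higher and 1 lower, with a median log2 fold change of 1.07. In the next, from ZNF766 to ZNF816, 13 of 16 were called higher and 0 lower, with a median of 1.80, and this stretch held 5 of the 6 genes past 16-fold. From ZNF160 to ZNF677, 3 of 5 were called higher, with a median of 0.63, and from ZNF845 to ZNF813, 2 of 5 higher and 1 lower, with a median of 0.16. Neighbours could differ greatly. ZNF841, with a log2 fold change of 8.58, stands beside ZNF616, with -0.60. ZNF610, with 0.82, is followed by ZNF880, with 4.89, and ZNF600, with 5.62, by ZNF28, with 0.89.

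Genes of other kinds inside the cluster were compared where the table gave them a name and identifier of their own. Of 26 such genes, 11 were not tested for low counts, and of the other 15, 10 were called higher and 0 lower in naive cells, beside 26% and 27% of all genes. DPPA5P1, FAM90A27P and FAM90A28P, among the 10, had 0 counts in both primed libraries and passed the filter only through the naive ones, so nothing is read from the count. PPP2R1A, a scaffold subunit of protein phosphatase 2A between ZNF836 and ZNF766, was at 274 ± 15.9 CPM (SD, n = 4) and 292 ± 17.8 CPM (SD, n = 2), with a log2 fold change of -0.09 (SE 0.10). ZNF528-AS1, on the opposite strand, starts at 52397791, just before the start of ZNF528 at 52397849. The 2 genes run away from each other and do not overlap. It had 26.5 ± 4.40 CPM (SD, n = 4) in the naive state, 1.18 ± 0.383 CPM (SD, n = 2) in the primed state and a log2 fold change of 4.49 (SE 0.26), next to 5.33 for ZNF528 itself. ZNF350-AS1 had 2.03 (SE 0.28), next to 2.47 for ZNF350. ERVV-2, an endogenous retroviral envelope gene of the cluster, had 2.16 (SE 0.42) at 2.10 ± 0.701 CPM (SD, n = 4) and 0.467 ± 0.00389 CPM (SD, n = 2). The library kit keeps strand, but whether counting used it is not stated. Of the 36 genes, 9 share exon sequence with a transcript on the opposite strand (ZNF649, ZNF432, ZNF480, ZNF578, ZNF701, ZNF28, ZNF665, ZNF677 and ZNF765), and there reads of both may not have been kept apart.

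The promoters of these genes are alike in composition. RefSeq promoter windows (assembly GRCh38.p14, 250 bases before to 50 after the start) were found for 30 of the 36 genes. Those without an entry were ZNF600, ZNF665, ZNF28, ZNF610, ZNF480 and ZNF649. The observed over expected frequency of CG dinucleotides was 0.626 to 1.13 in the 30 windows, with a median of 0.841. It was over 0.6 in all 30, against 48.8% of 35116 windows of all genes, whose median was 0.579. For each member the window nearest the start of its main transcript was taken, whereas the 35116 are all entries, with no choice of 1 per gene. The 2 sets of windows, used for the motifs as well, are thus not formed alike. The following motifs were searched on either strand. GGGCGG, the core of the SP1 motif, occurred in 26 of the 30 (86.7%, against 45.0% of all windows). CCGGAAG, an ETS motif, occurred in 20 (66.7%, against 10.3%), but in only 4 (13.3%, against 6.85%) where the search was limited to the 150 bases before the start. ATGGCG, part of the YY1 motif, occurred in 8 (26.7%, against 10.7%) and in 3 of the shorter windows. GCGCATGC, the NRF1 motif, occurred in 1 window (3.33%, against 3.05%). TGACGTCA, the CRE motif, and TATAAA, the TATA box, occurred in 0 (against 1.85% and 11.5%). After the windows had been read, GCGCGCG and AGGCCTGG were also counted, and they occurred in 13 (43.3%, against 11.6%) and 10 (33.3%, against 3.37%). The palindromic motifs are counted once per window and GGGCGG and GCGCGCG can overlap in a window.

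Genes with like promoters could have very different values. In the following stretches, the 200 bases before the start in transcript direction, CG dinucleotides are in capitals. They are shown for the genes with the highest fold changes, for ZNF616, the neighbour of ZNF841 and the gene whose promoter was most like its own, and for ZNF701 and ZNF845, whose windows were the most alike of all.
ZNF534, chr19:52428948-52429147, plus strand: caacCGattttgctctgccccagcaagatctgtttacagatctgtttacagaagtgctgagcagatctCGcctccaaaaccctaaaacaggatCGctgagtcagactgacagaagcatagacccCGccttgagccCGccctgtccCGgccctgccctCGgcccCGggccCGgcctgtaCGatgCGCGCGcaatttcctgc
ZNF841, chr19:52095766-52095965, minus strand: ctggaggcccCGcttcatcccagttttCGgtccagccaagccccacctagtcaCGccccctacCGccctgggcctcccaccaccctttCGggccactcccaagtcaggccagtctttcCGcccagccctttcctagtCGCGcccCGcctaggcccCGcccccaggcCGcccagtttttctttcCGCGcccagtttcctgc
ZNF616, chr19:52139939-52140138, minus strand: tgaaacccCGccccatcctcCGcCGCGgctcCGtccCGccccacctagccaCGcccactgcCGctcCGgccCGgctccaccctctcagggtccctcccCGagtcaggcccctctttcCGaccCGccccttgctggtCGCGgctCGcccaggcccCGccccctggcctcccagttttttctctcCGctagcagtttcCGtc
ZNF701, chr19:52570087-52570286, plus strand: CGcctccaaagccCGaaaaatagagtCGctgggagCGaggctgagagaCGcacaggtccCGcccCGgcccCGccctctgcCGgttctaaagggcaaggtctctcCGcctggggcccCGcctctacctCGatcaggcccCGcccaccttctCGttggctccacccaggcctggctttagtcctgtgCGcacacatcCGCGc
ZNF845, chr19:53333549-53333748, plus strand: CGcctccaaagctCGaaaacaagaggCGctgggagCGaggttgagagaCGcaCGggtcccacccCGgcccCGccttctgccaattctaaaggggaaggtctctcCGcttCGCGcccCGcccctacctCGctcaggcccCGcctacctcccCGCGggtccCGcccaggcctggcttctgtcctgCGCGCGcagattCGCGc

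Over the whole windows, ZNF701 and ZNF845 were identical at 258 of 300 aligned bases (86.0%), and their log2 fold changes were 1.85 and 0.16. ZNF841 and ZNF616 were identical in 74.1% of alignment columns, with log2 fold changes of 8.58 and -0.60, and no other window was as near to that of ZNF841. ZNF808 and ZNF611 were identical in 83.1%, with log2 fold changes of 2.65 and 2.004. The window nearest to that of ZNF534 was that of ZNF880, at 59.8%, with 8.91 and 4.89. Of the 435 pairs of windows, 13 pairs among 8 genes reached 80% identity. The log2 fold changes within these pairs differed by 0.02 to 1.84, with a median difference of 0.66 against 1.57 over all pairs. These 8 genes had log2 fold changes of 0.14 to 2.65 and none was past 16-fold, which limits their differences. All pairs take in ZNF534 and ZNF841, so the medians are not set on equal terms. Pairs share genes, so these are descriptions, and a match of letters is not a site of binding.

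**Figure D3:**
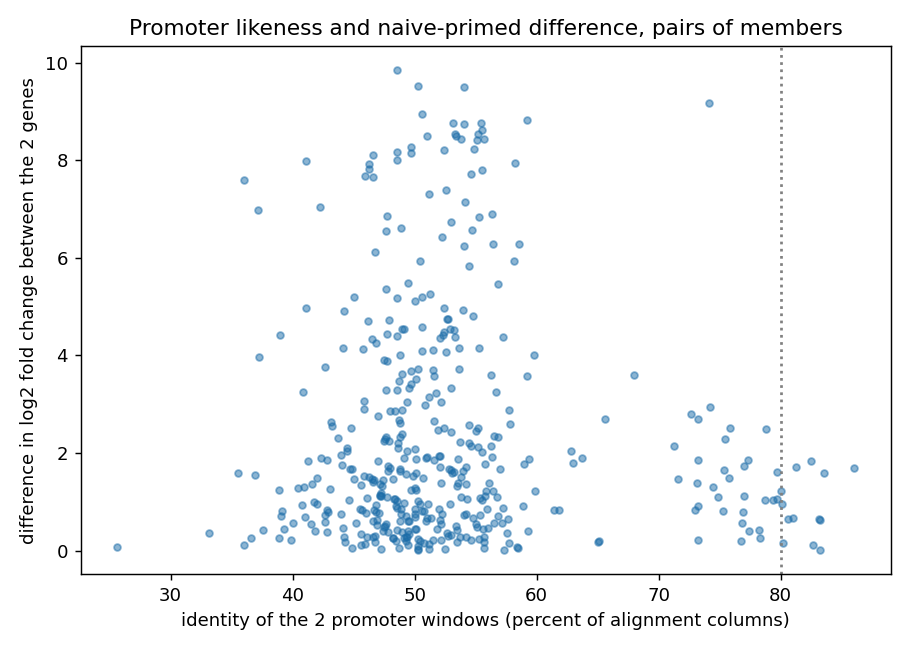
Each point is a pair of member genes, with the identity of their promoter windows in percent of alignment columns on the horizontal axis and the absolute difference between their log2 fold changes of naive over primed on the vertical axis; the dotted line marks 80%. The 13 pairs right of the line differ by 0.02 to 1.84, and ZNF841 with ZNF616 lies at 74.1% and 9.18.

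The coding sequences hold rows of fingers of differing length. The strict pattern of a C2H2 finger was found 7 times in the products of ZNF577, ZNF766 and ZNF701 and 26 times in that of ZNF845, with a median of 13 over the 36 genes. ZNF534 has 14, ZNF841 has 20, ZNF600 has 18, ZNF528 has 15 and ZNF880 and ZNF813 have 13 each. Sequence in common between genes, through duplication or overlapping gene models, was also counted. Of all 75-base stretches of a gene's main transcript, a median of 1.51% and at most 15.5% occur in transcripts of other genes. The share was over 10% in ZNF578 (15.5%), ZNF808 (12.8%), ZNF701 (12.4%) and ZNF836 (12.04%), whose counts are less certain for that reason. Most of it was shared with a transcript that overlaps the gene itself in ZNF836 (12.04%, same strand), ZNF578 (11.5%, opposite strand) and ZNF701 (9.50%, opposite strand). It was 0.0780% in ZNF534, 0.0255% in ZNF528, 0% in ZNF880, 2.45% in ZNF841 and 6.89% in ZNF600. The gene models of ZNF432 and ZNF841 overlap on the same strand, and 2.37% of the stretches of ZNF841 occur in transcripts of ZNF432. Of the stretches of ZNF432, 1.53% occur in a transcript that overlaps it on the opposite strand.

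Each naive library was also set against its own parental line. The median ratio over the 36 genes was 1.96 in AICAR 1, 2.23 in AICAR 2 and 2.03 in VPA over primed EOS, and 2.28 in CA-p38 over primed CA-p38. Ratios were above 1 in 32, 33, 31 and 33 of the genes in that order of libraries and at least 4 in 10, 9, 12 and 11. The shares over all genes were not computed for these ratios, and the naive-primed contrast led to the choice of the genes. Nothing is therefore read from these counts. ZNF600 was 51.4, 46.0 and 53.9 times its parent in AICAR 1, AICAR 2 and VPA and 50.7 times in CA-p38. ZNF578 was 23.7, 28.3, 26.2 and 21.6 times its parent and ZNF880 was 34.02, 27.97, 36.1 and 27.6 times, so that every one of these ratios was over 20. The AICAR and VPA ratios share the primed EOS library, and each ratio rests on a single pair of libraries.

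The only naive library of the CA-p38 EOS line is also the only one induced with CA-p38, so in naive cells line and induction cannot be told apart. Differences between the lines and between inductions do not rest on the contrast that led to the genes, and they were tested over all 26497 genes. Between the CA-p38 EOS line and the EOS line, with the state in the model, 0 of the 36 genes were called (0.0% of all genes by edgeR's quasi-likelihood test). At an unadjusted p under 0.05 there were 1126 of all genes and 3 of the 36, and DESeq2 called 5 genes and limma-voom 0, none of the 36. The largest difference was that of ZNF808, 0.39 higher in the CA-p38 EOS line on the log2 scale (SE 0.16, adjusted p = 0.998 by edgeR). ZNF761 (0.26, SE 0.11) and ZNF813 (0.30, SE 0.13) were the others under the unadjusted threshold. Of the 36 differences 31 were above 0, as were 50.8% of all genes, and their median was 0.14 against 0.01 for all genes.

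Between VPA and the other naive libraries, 0 of the 36 genes were called, where 3 genes in all were (0.0113% of all genes). DESeq2 called 84 genes and limma-voom 16, none of the 36, and 2003 genes and 1 of the 36 were under an unadjusted p of 0.05. That gene was ZNF808, 0.48 lower in VPA on the log2 scale (SE 0.21, adjusted p = 0.638 by edgeR), and the differences of all 36 lay between -0.48 and 0.45. Between AICAR and the other naive libraries, 0 of the 36 were called and 0 genes in all (0.0% by edgeR). DESeq2 called 62 genes and limma-voom 9, none of the 36, and 1307 genes were under an unadjusted p of 0.05. ZNF160 (0.53 lower in AICAR, as -0.53, SE 0.17, adjusted p = 0.796 by edgeR) and ZNF665 (-0.52, SE 0.24) were the genes of the cluster among these. The VPA arm is a single library, assumed to vary like the others.

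The naive-primed change in the CA-p38 EOS line was finally compared with that in the EOS line by an interaction term. Again 0 of the 36 genes were called, against 1 gene in all (0.00377% of all genes), 23 by DESeq2 and 0 by limma-voom, none of the 36. Under an unadjusted p of 0.05 were 853 genes and, of the cluster, ZNF160, with a change larger by 0.98 on the log2 scale in the CA-p38 EOS line (SE 0.31, adjusted p = 0.9999 by edgeR), and ZNF610, with 0.92 (SE 0.40). For ZNF534 the difference was -0.48 with a standard error of 0.92, so that differences of well over 2-fold were not detectable there. ZNF600 had 0.01 (SE 0.25) and ZNF808 -0.01 (SE 0.35). In this comparison 3 of the 4 arms are 1 library each and are assumed to vary like the 3 naive libraries of the EOS line, which give all of the spread (2 residual degrees of freedom). Line and induction cannot be told apart here either.

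**Figure D4:**
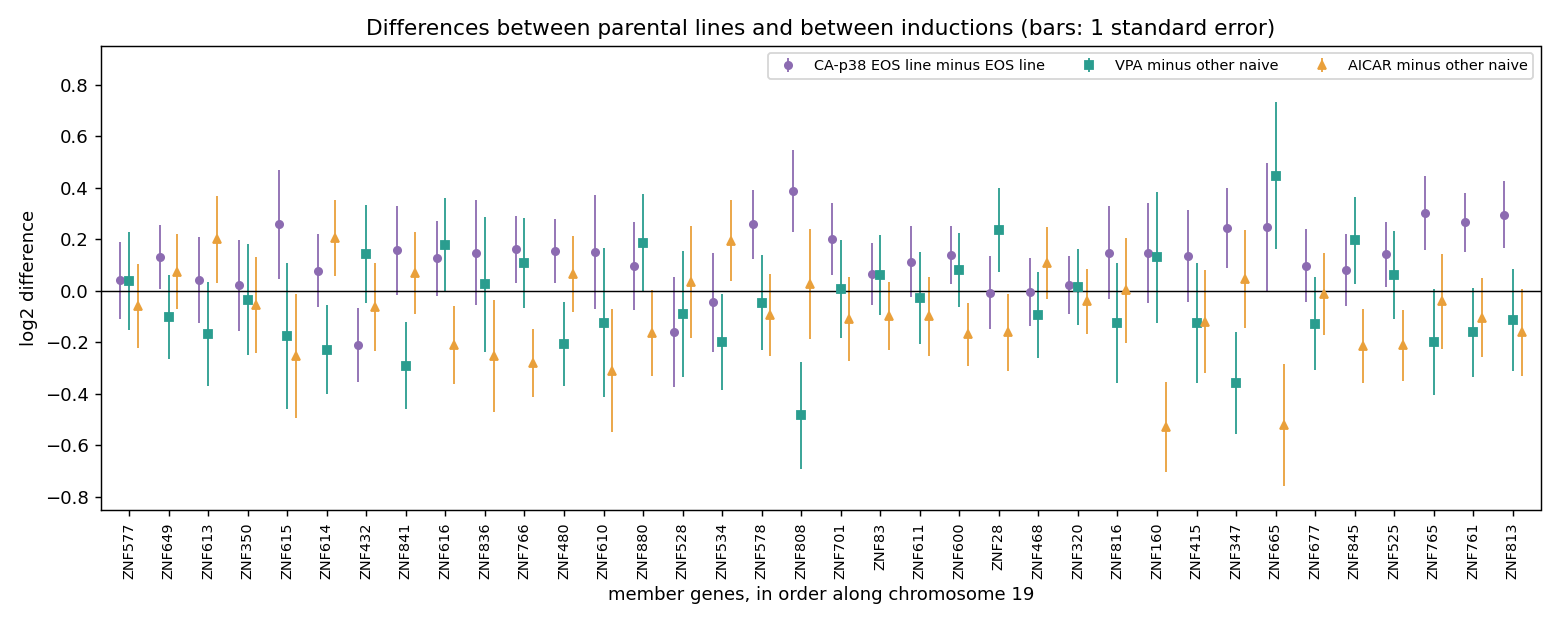
Fitted log2 difference of each of the 36 genes between the CA-p38 EOS line and the EOS line (purple circles), VPA and the other naive libraries (green squares), and AICAR and the other naive libraries (orange triangles), with bars of 1 standard error and the genes in chromosomal order. All values lie between -0.53 and 0.45, and none was called.

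Other zinc finger genes were set beside the cluster. In the cluster at 19p12, which holds ZNF91 and ZNF93, known repressors of SVA and LINE-1 elements, 26 of 33 genes were called higher and 2 lower, the median of the log2 fold changes being 1.91 and the highest value 11.43 (ZNF729). Of the 180 other ZNF genes of chromosome 19, 76 were called higher and 22 lower, with a median of 0.30. On other chromosomes, 72 of 259 ZNF genes tested were called higher and 99 lower, with a median of -0.19. The share called higher was thus 72.2% in the 19q13.4 list and 78.8% in the 19p12 list. It was 42.2% in the other ZNF genes of chromosome 19 and 27.8% on other chromosomes, beside 26% of all genes. These lists were formed with the earlier results known, and no test of their differences was made. Summed, the 19p12 genes had 444 to 497 CPM in primed and 1571 to 2186 CPM in naive libraries, of which VPA was the lowest.

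**Figure D5:**
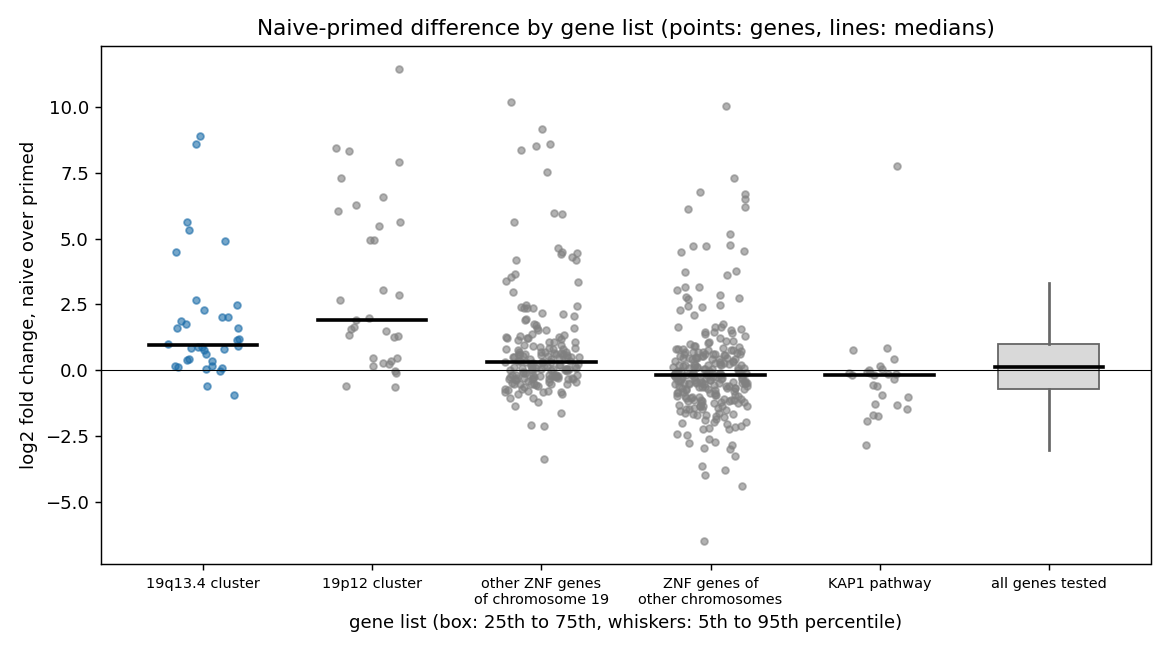
Log2 fold change of naive over primed for the genes of each list (points, with the list median as a black line) and for all genes tested (box from the 25th to the 75th percentile, whiskers from the 5th to the 95th). The medians are 0.95 for the 19q13.4 cluster, 1.91 for 19p12, 0.30 for other ZNF genes of chromosome 19, -0.19 for those of other chromosomes, -0.18 for the KAP1 pathway and 0.11 for all genes.

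Among genes of the pathway through which KRAB zinc finger proteins act, more were called lower than higher in naive cells. TRIM28, the common corepressor, had 983 CPM in VPA, 949 CPM in CA-p38, 1015 CPM in AICAR 1 and 948 CPM in AICAR 2 and 959 and 963 CPM in primed EOS and primed CA-p38. Its log2 fold change was 0.02 (SE 0.08). SETDB1, which methylates histone H3 at lysine 9, had -0.11 (SE 0.11), and its cofactor ATF7IP had -0.11 (SE 0.14). Of 26 genes of this pathway, 4 were called higher (15.4%) and 12 lower (46.2%), beside 26% and 27% of all genes, with a median of -0.18. The list includes ZFP57 and ZNF445, which are KRAB zinc finger proteins themselves. CBX5, a heterochromatin protein, fell by 2.84 on the log2 scale (SE 0.10), from 389 ± 10.8 CPM (SD, n = 2) in primed to 54.2 ± 4.47 CPM (SD, n = 4) in naive libraries. DNMT3B and DNMT1, enzymes of DNA methylation, fell by 1.95 (SE 0.11) and 1.70 (SE 0.10). The highest value was that of ZFP57, a KRAB zinc finger protein that guards imprinted regions, with 7.77 (SE 0.22), whereas ZNF445, another such protein, had -0.17 (SE 0.11). MPHOSPH8 (0.76), MORC3 (0.83) and HDAC1 (0.42) were the others called higher.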

How the data were processed

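Counts per Ensembl gene are whole numbers, deposited by the authors without normalization. Per the study's methods and the submitters' processing notes, adapters were trimmed with Trim Galore 0.4.4 and cutadapt 1.15 (stringency 3), reads were mapped with Bowtie2 2.2.5 in very-sensitive-local mode to cDNA and noncoding RNA of Ensembl GRCh38 release 100, and reads below a mapping quality of 1 were dropped before counting. Poly(A) RNA and the SMART-Seq Stranded kit were used. Local alignment to transcripts with this mapping quality can lose or misplace reads that paralogs share.

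The table held 61222 rows, of which 26 spike-in rows were left out, and counts of identifiers sharing a name were summed. Another 23 columns, of samples of other series, were not used. By their counts the 2 AICAR libraries are not the same library deposited again (chi-square per gene 23.97, against 22.6 to 41.6 for other naive pairs). They were kept as 2 samples, which does not show that they are separate inductions. Groups were the naive and primed cells of the labels. Tests used edgeR 4.0.16 (R 4.3.3): the quasi-likelihood fit of glmQLFit, TMM factors (0.936 to 1.061), filterByExpr by state, and Benjamini-Hochberg adjustment over all genes tested with a threshold of 0.05. CPM values are TMM-scaled, and a standard error is the log2 fold change over the root of its F statistic. DESeq2 1.42.0, limma 3.58.1 (voom), other scalings and filters, 1 identifier per name, a block for the parental line, a sum of the AICAR libraries and fits without each library were the alternatives. Positions are from GENCODE release 44 (GRCh38), promoters from RefSeq (GRCh38.p14). Promoter windows were aligned globally, and identity counts gaps as differences. All else was computed in Python 3.11.15 (pandas 2.3.3, numpy 2.4.6, scipy 1.17.1) and drawn with matplotlib 3.10.9.

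The 36 genes and all lists were chosen with earlier results of these data known. Genes given with values for every library were the 5 highest and the 5 lowest by log2 fold change and those with a known individual role. The p-values rest on the spread between libraries, which includes counting error, most of all in genes with few counts. Intervals cover counting error only.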

Additional observations from a re-analysis of the deposited data

Results flagged for a closer look

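ZNF577 in AICAR 2 lay apart from the other naive libraries, at 20.9 CPM against 23.0 CPM in VPA, 23.0 CPM in CA-p38 and 23.2 CPM in AICAR 1. On the log2 scale the gap to the nearest library was 0.913 of the range of the 4 libraries, above the 95% critical value of Dixon's test for 4 samples. The naive groups of all 36 genes were looked at in this way, and chance flags about 1 in 20 groups. The value remained above both primed libraries, at 13.2 and 13.5 CPM.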

How the results depend on the processing

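Naive against primed, 23 to 27 of the 36 genes were called higher and 2 lower under all 15 alternatives, and their median log2 fold change was 0.89 to 1.05. With 1 library left out, 23 to 26 were called higher and 2 lower, and 11313 to 13677 genes in all. Of 538 values of single genes under alternatives, 519 kept their direction and side of the threshold, 10 lost the call and 1 gained it. Signs turned in 8, all of them for genes near 0. ZNF480 had -0.024 with DESeq2 and with median-ratio factors, and -0.090 to 0.15 with 1 library left out (below 0 without CA-p38 or primed EOS). ZNF816 had 0.066 with library totals, 0.0018 with the parental line as a block and -0.14 to 0.067 with 1 library left out (above 0 without primed CA-p38). ZNF766 had -0.0028 to 0.13 with 1 library left out (below 0 without CA-p38). With at least 10 counts in every library, 34 of the 36 genes could be tested.

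The other comparisons called 0 of the 36 genes under every alternative, while counts over all genes moved. Between the lines, DESeq2 and no low-count filter gave 5 genes each, and leaving out libraries 0 to 5, with 5 without CA-p38, 2 without AICAR 2 and 0 without any other. For VPA, DESeq2 gave 84, no filter 249, at least 10 counts in every library 16, limma-voom 16, and library totals and 1 identifier per name 0 each, with 0 to 2 when a library was left out, 2 of them without CA-p38 and 0 without any other. For AICAR, DESeq2 gave 62, limma-voom 9, no filter 152, and leaving out libraries 0 to 2, with 2 without CA-p38 or AICAR 1. For the difference of the state change between lines, DESeq2 gave 23, no filter 8, library totals 3, median-ratio factors and 1 identifier per name 2 each, at least 10 counts and limma-voom 0 each, and leaving out libraries 1 to 28, with 28 without VPA, 3 without AICAR 2 and 1 without AICAR 1. This last difference could not be fitted without CA-p38 or a primed library, nor the VPA difference without VPA. The cause was not tested. The labels number the AICAR libraries and give no other replicate numbers. Pairing by parental line, with that line as a block, called 26 of the 36 genes higher and 2 lower and changed no call among them. Depth limits ZNF534 and ZNF841 most, with 7 and 13 counts over both primed libraries.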
